A study of Homo sapiens with 4 samples.

Results

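Histones are the proteins that package DNA into nucleosomes, and the genes described here are the human core and linker histone genes. They were chosen by name: protein-coding genes of GENCODE release 29 whose name begins with HIST1H to HIST4H, H2AF, H3F or H1F. The rule found 87 of the 58735 genes in the deposited tables. Of these, 71 have HIST names and are called HIST cluster genes below. The other 16, with H2AF, H3F or H1F names, are called variant histones. The split is by name and not by position.

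RNA-seq was performed on 4 libraries labelled Huh7, a cell line from a human liver cancer. There were 2 libraries from cells with a short hairpin RNA against NME7 (shNME7), a nucleoside diphosphate kinase family member, and 2 from cells with a control hairpin (shCtrl). No other agent, time or genotype is given in the labels, which also do not name the vector, the hairpin sequences or the number of clones. Whether replicates were separate cultures is not given, so a p-value reflects the variation among these 4 libraries, which may be technical. The libraries held 14877906 to 16991397 fragments assigned to genes. NME7 had 0.835 and 0.626 FPKM (fragments scaled to exon length and to library size) in the shNME7 libraries, against 3.64 and 3.93 FPKM in the shCtrl libraries (limma-trend adjusted p = 0.310, limma-voom adjusted p = 0.000998). The 10 hepatocyte and liver cancer markers went against the tissue label: ALB, AFP, APOB, APOA1, TTR and the other 5 each stayed under 0.1 FPKM in every library, and 4 of them were listed at 0 throughout. Their summed level was 0.110 and 0.0858 FPKM in the shNME7 libraries and 0.0564 and 0.106 FPKM in the shCtrl libraries. The 6 fibroblast-list genes summed to 98.7 and 97.3 FPKM with shNME7 and to 103 and 92.1 FPKM with shCtrl, most of it from COL3A1 at 66.9 to 76.6 FPKM. That list was not uniform: 2 of the 6, COL1A2 and DCN, stayed under 0.1 FPKM in every library. The 5 endothelial genes summed to 2.87 and 3.54 FPKM with shNME7 and to 2.37 and 2.03 FPKM with shCtrl, with VWF, TEK and KDR under 0.1 FPKM in every library. The 6 leukocyte genes summed to 0.0556 and 0.340 FPKM with shNME7 and to 0.105 and 0.235 FPKM with shCtrl. All levels below are therefore those of libraries labelled Huh7.

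Histone genes of the HIST clusters are replication-dependent: cells transcribe them mainly in S phase, when new DNA has to be packaged. Most of their mRNAs carry no poly(A) tail and end instead just after a conserved stem-loop, which the stem-loop binding protein SLBP holds and near which a complex with the U7 small nuclear RNA cuts. Some cluster genes also give polyadenylated transcripts, which are known from differentiated cells. Variant histone genes are transcribed through the cell cycle, have ordinary poly(A) tails, and encode proteins such as H2A.Z and H3.3 that are placed in chromatin outside replication. The sources used here do not say whether the libraries were made from poly(A)-selected RNA, so a low level of a cluster gene and a low recovery of its RNA cannot be told apart.

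The stem-loops of 9 histone genes are shown because they are the feature by which the transcript ends of the 2 classes differ. The 16 bases of stem and loop are in capitals, with 5 flanking bases on each side, as in the GENCODE release 29 transcripts and in the sense of the gene.
HIST3H2A: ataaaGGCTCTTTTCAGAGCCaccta
HIST1H2AC: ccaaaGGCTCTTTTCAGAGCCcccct
HIST1H2BD: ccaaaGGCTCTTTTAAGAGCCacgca
HIST2H2BE: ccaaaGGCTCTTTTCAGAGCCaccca
HIST1H3H: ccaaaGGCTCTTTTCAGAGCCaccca
HIST1H4I: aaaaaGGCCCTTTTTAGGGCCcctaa
HIST2H4B: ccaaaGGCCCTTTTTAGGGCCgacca
HIST1H4B: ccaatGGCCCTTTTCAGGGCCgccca
H2AFX: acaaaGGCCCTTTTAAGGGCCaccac
The first 8 are HIST cluster genes: the first 6 have the highest levels among cluster genes with a stem-loop in their annotated 3′ UTR, and HIST2H4B and HIST1H4B are H4 genes with low unadjusted p-values below. H2AFX, the last, is a variant gene whose mRNA is known to be made both with and without a poly(A) tail. All lie in annotated 3′ UTRs on GRCh38, with the HIST3H2A site at chr1:228457364-228457389 and the HIST2H2BE site at chr1:149886183-149886208, both on the minus strand. The HIST2H4B site is at chr1:149860764-149860789 on the minus strand. On chromosome 6 the plus strand holds the sites of HIST1H2AC (chr6:26124664-26124689), HIST1H2BD (chr6:26158582-26158607), HIST1H3H (chr6:27810511-27810536) and HIST1H4I (chr6:27139649-27139674), and the minus strand that of HIST1H4B (chr6:26026896-26026921). The H2AFX site is at chr11:119094893-119094918 on the minus strand.

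The histone stem-loop, searched by its consensus on the sense strand past the stop codon, was found in 31 of the 36 HIST cluster genes with at least 30 annotated bases past the stop codon (86.1%), in 1 of 15 variant genes and in 4 of 19258 other protein-coding genes (0.0208%). In the cluster genes its first base lay 23 to 68 bases past the stop codon, with a median of 37 bases. All 8 H4 genes with a stem-loop had GGCCC as the first stem bases, while the cluster genes of the H2A, H2B and H3 families had GGCTC, and the H2AFX stem also began with GGCCC. The poly(A) signal letters AATAAA or ATTAAA stood in the last 50 bases of an annotated transcript (sense strand) of 23 of the 36 cluster genes (63.9%), of 13 of the 15 variant genes (86.7%) and of 16226 of 19258 other protein-coding genes (84.3%). A match is a description of letters, and a missing match says only that the letters are not in that window. For 33 of the 71 cluster genes the annotated exons are the coding sequence alone, so their FPKM is per base of coding sequence and their transcript ends are not annotated.

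In every library the variant genes as a class stood above the HIST cluster genes, in summed and in median level. The variant genes summed to 610 and 673 FPKM in the shNME7 libraries, against 658 and 544 FPKM in the shCtrl libraries. The 71 cluster genes summed to 369 and 369 FPKM in the shNME7 libraries, against 381 and 337 FPKM in the shCtrl libraries. Summed cluster FPKM was thus 0.605 and 0.548 of summed variant FPKM with shNME7 and 0.579 and 0.619 of it with shCtrl, so the groups overlapped. This ratio depends on the annotated exon lengths, and as fragments the classes lay further apart. Cluster genes had 4519 and 4818 fragments with shNME7 and 4862 and 4469 with shCtrl. Variant genes had 29106 and 35578 fragments with shNME7 and 31790 and 28008 with shCtrl. The median cluster gene had 0.357 and 0.464 FPKM with shNME7 and 0.808 and 0.606 FPKM with shCtrl, while the median variant gene had 20.3 and 28.1 FPKM with shNME7 and 22.2 and 15.9 FPKM with shCtrl. Histone fragments made up 0.226% and 0.238% of all fragments with shNME7 and 0.231% and 0.202% with shCtrl. In bulk libraries fewer cells of a kind and less RNA per cell cannot be told apart.

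**Figure D1:**
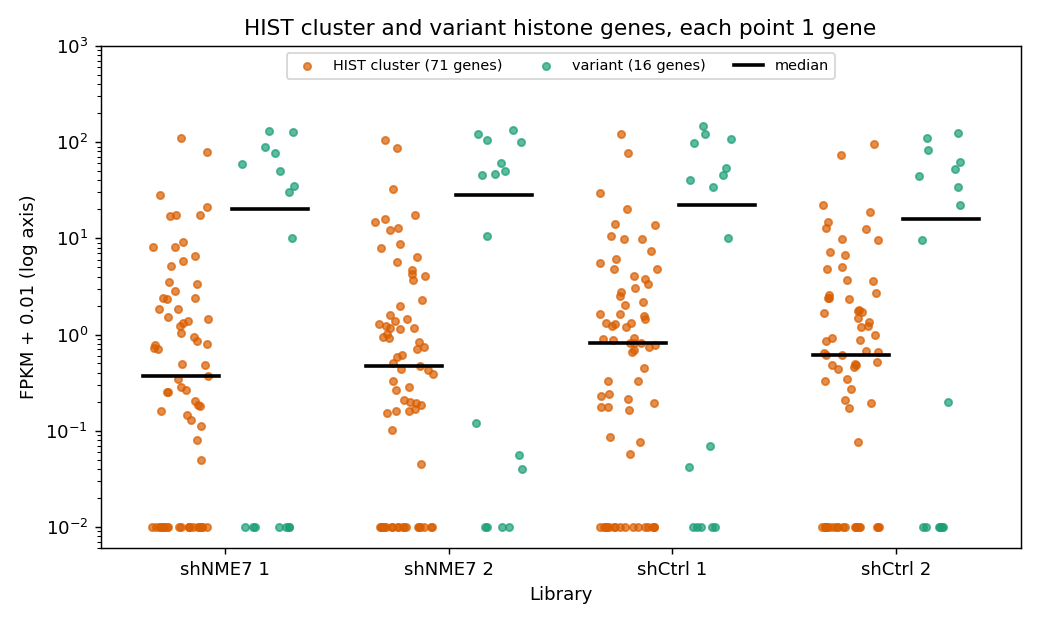
Level of each histone gene (FPKM + 0.01, log axis) in the shNME7 and shCtrl libraries, with HIST cluster genes in orange, variant genes in green and a black bar at each median. The variant median lies between 15.9 and 28.1 FPKM and the cluster median between 0.357 and 0.808 FPKM, and genes listed at 0 sit at the bottom edge.

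Both classes were uneven. A mean of at least 1 FPKM over the 4 libraries was reached by 29 of 71 cluster genes and 9 of 16 variant genes, and a mean of at least 5 FPKM by 12 cluster genes and the same 9 variant genes. In each class a few genes carried most of the summed level: HIST1H2BK, HIST1H1C and HIST3H2A made up 58.6% and 61.0% of the cluster sum with shNME7 and 59.8% and 57.1% with shCtrl. Among variant genes the 3 highest held 53.5% to 58.8% of the sum. A further 16 genes, 12 of the clusters and 4 variants, were listed at 0 in all 4 libraries, where 0 is compatible with as many as 3 fragments in a library. The 9 germline histone genes, which include the testis linker histone HIST1H1T and the oocyte linker histone H1FOO, were at or near 0, with 7 listed at 0 throughout and no value above 0.653 FPKM. The remaining members lay between these levels, 33 of the 87 having some fragments but a mean under 1 FPKM.

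The linker histones, which bind DNA between nucleosomes, included the histone gene with the highest mean FPKM. H1F0, the linker histone known from non-dividing and differentiated cells, had 132 and 122 FPKM with shNME7 and 147 and 126 FPKM with shCtrl. FPKM divides by all annotated exon bases, which were 2344 for H1F0 and 6134 for H3F3B, so the ranking depends on the annotation. As fragments per group, H3F3B had more than H1F0: 11727 against 9505 with shNME7 and 10375 against 10246 with shCtrl. H1FX, a linker histone of the variant class, had 77.9 and 99.3 FPKM with shNME7 and 108 and 61.4 FPKM with shCtrl, so that its replicates differed more than its group means of 88.6 ± 15.1 FPKM with shNME7 and 84.6 ± 32.8 FPKM with shCtrl (SD, n = 2 each). HIST1H1C, a cluster linker histone whose annotated exon is coding sequence alone, had 78.7 and 86.1 FPKM with shNME7 and 77.5 and 73.4 FPKM with shCtrl, and its groups did not overlap. The other tested cluster linker histone, HIST1H1E, was far lower at 3.53 and 1.95 FPKM with shNME7 and 3.33 and 4.77 FPKM with shCtrl. H1FX shares 345 exon bases with its antisense gene H1FX-AS1, which had 27 to 45 fragments per library against at least 1493 for H1FX, and the strand used in counting is not given.

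Among H2A variants, H2AFZ and H2AFV encode both forms of H2A.Z, a variant placed at promoters and enhancers. H2AFZ had 126 and 133 FPKM with shNME7 and 121 and 111 FPKM with shCtrl. H2AFV had 49.7 and 49.98 FPKM with shNME7 and 45.2 and 44.7 FPKM with shCtrl. In both genes the 2 shNME7 libraries lay above the 2 shCtrl libraries by a small margin, with log2 differences of 0.16 ± 0.14 for H2AFZ and 0.15 ± 0.13 for H2AFV (SE), and neither passed the test (limma-trend adjusted p = 0.838 for each). H2AFX, whose protein is phosphorylated at DNA double-strand breaks, had 35.0 and 46.9 FPKM with shNME7 and 40.4 and 34.1 FPKM with shCtrl. H2AFJ, a variant close in sequence to canonical H2A, had 30.4 and 45.5 FPKM with shNME7 and 34.3 and 22.1 FPKM with shCtrl. In H2AFX and H2AFJ the groups overlapped, and the highest value of each was that of shNME7 2. H2AFJ had a log2 difference of 0.42 ± 0.27 (SE; limma-trend adjusted p = 0.819). The difference was 0.70 without shNME7 1, 0.73 without shCtrl 1, 0.13 without shNME7 2 and 0.11 without shCtrl 2. H2AFY, the gene of macroH2A, which is known from the inactive X chromosome and silent genes, had 10.2 and 10.6 FPKM with shNME7 and 10.03 and 9.66 FPKM with shCtrl. It shares 4968 exon bases with C5orf66 on the other strand, which had 18 to 37 fragments per library.

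H3F3A and H3F3B encode the same protein, histone H3.3, which HIRA and the ATRX and DAXX pair place in chromatin without replication. H3F3A had 89.6 and 105 FPKM with shNME7 and 98.6 and 83.3 FPKM with shCtrl, and its groups overlapped. H3F3B had 59.2 and 60.2 FPKM with shNME7 and 53.5 and 52.0 FPKM with shCtrl, so its shNME7 libraries both lay above. The difference for H3F3B was 0.17 ± 0.13 on the log2 scale (SE; limma-trend adjusted p = 0.836). Its exons overlap those of UNK on the other strand by 214 bases, with 617 to 841 fragments per library for UNK and at least 5149 for H3F3B. H3F3C, a copy of the gene without introns, had 2 fragments in shNME7 2, 1 in shCtrl 1 and 0 in the other libraries.

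**Figure D2:**
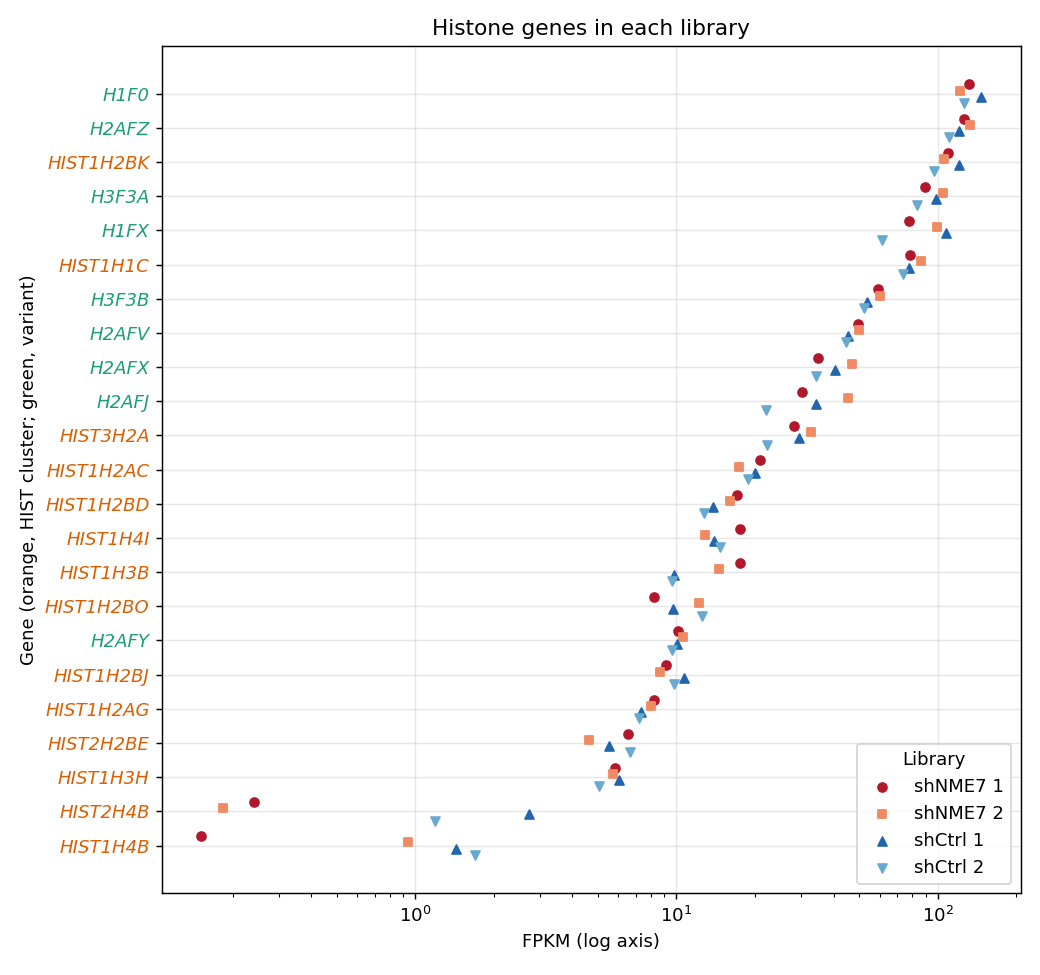
FPKM (log axis) in each library of the 21 histone genes with a mean of at least 5 FPKM and of HIST2H4B and HIST1H4B; gene names in orange are HIST cluster genes and those in green variant genes. Most genes have all 4 libraries close together, while HIST1H3B is higher in both shNME7 libraries and HIST2H4B and HIST1H4B are higher in both shCtrl libraries.

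Of the core histone genes in the clusters, those for H2A and H2B held the highest levels. HIST1H2BK led all cluster genes with 109 and 106 FPKM with shNME7 and 121 and 96.7 FPKM with shCtrl, and its level rests on 594 to 734 fragments over an annotated exon of 381 bases. Among H2A genes, HIST3H2A of the HIST3 cluster had 28.1 and 32.9 FPKM with shNME7 and 29.4 and 22.2 FPKM with shCtrl. HIST1H2AC had 20.9 and 17.3 FPKM with shNME7 and 20.04 and 18.8 FPKM with shCtrl. In these 3 genes the groups overlapped. HIST1H2AG had 8.19 and 7.98 FPKM with shNME7 and 7.32 and 7.22 FPKM with shCtrl. HIST1H2BD had 17.04 and 16.02 FPKM with shNME7 and 13.8 and 12.7 FPKM with shCtrl. HIST1H2AG and HIST1H2BD were higher in both shNME7 libraries, by 0.14 ± 0.13 and 0.30 ± 0.13 on the log2 scale (SE), and did not pass the test (limma-trend adjusted p = 0.843 for HIST1H2AG and 0.778 for HIST1H2BD). HIST1H2BJ had 9.11 and 8.68 FPKM with shNME7 and 10.7 and 9.79 FPKM with shCtrl, and was the only H2B gene above 5 FPKM whose shNME7 values were both under the shCtrl values. HIST1H2BO had 8.21 and 12.2 FPKM with shNME7 and 9.73 and 12.5 FPKM with shCtrl. HIST2H2BE had 6.52 and 4.64 FPKM with shNME7 and 5.50 and 6.67 FPKM with shCtrl. The groups of HIST1H2BO and HIST2H2BE overlapped.

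Cluster genes for H3 and H4 were lower, and the members with the smallest unadjusted p-values were among them. HIST1H3B, a replication-dependent H3 gene, had 17.5 and 14.6 FPKM with shNME7 and 9.79 and 9.65 FPKM with shCtrl, from 108 and 102 fragments with shNME7 and 64 in each shCtrl library. Its groups did not overlap, and its mean level was 1.65-fold higher with shNME7. The log2 difference was 0.66 ± 0.15 (SE; limma-trend unadjusted p = 0.00337, adjusted p = 0.567), so it did not pass the test over all genes. Over the libraries left out, the difference of HIST1H3B ran from 0.54 (without shNME7 1) to 0.79 (without shNME7 2). Its GC content is 59.1%, and with each library's trend on GC and length removed the difference was 0.49. HIST1H3H had 5.81 and 5.71 FPKM with shNME7 and 6.05 and 5.06 FPKM with shCtrl, with overlapping groups. These H3 genes encode the same protein as 8 other members, so fragments could be placed on a related copy where the coding sequences match closely.

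The H4 genes had levels from 0 to the 17.5 FPKM of HIST1H4I in shNME7 1. HIST1H4I had 17.5 and 12.9 FPKM with shNME7 and 13.9 and 14.7 FPKM with shCtrl, with overlapping groups. HIST2H4B had 0.241 and 0.183 FPKM with shNME7 and 2.74 and 1.19 FPKM with shCtrl, from 7 and 6 fragments with shNME7 and 84 and 37 fragments with shCtrl. The groups did not overlap, and the mean FPKM was 9.25-fold lower with shNME7. On the log2(FPKM + 1) scale, which understates changes of low genes, the difference was -1.24 ± 0.29 (SE; limma-trend unadjusted p = 0.00475, adjusted p = 0.572). On recovered fragments limma-voom gave -3.01 ± 0.61 (SE; adjusted p = 0.0941). HIST2H4B was therefore not called by either fit. Over the libraries left out, its limma-trend log2 difference ran from -1.62 (without shCtrl 2) to -0.85 (without shCtrl 1). With the replicate number as a block, a pairing the labels do not give, HIST2H4B was called (limma-trend adjusted p = 0.00189). With the GC and length trend also removed it was not (limma-trend adjusted p = 0.480). The coding sequence of HIST2H4B is identical to that of HIST2H4A, which had 2 and 5 fragments with shNME7 and 2 in each shCtrl library. On the other strand, 173 exon bases of HIST2H4B overlap HIST2H3A. The pair summed to 9 and 11 fragments with shNME7 and 86 and 39 fragments with shCtrl.

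HIST1H4B had 0.152 and 0.941 FPKM with shNME7 and 1.43 and 1.70 FPKM with shCtrl, from 1 and 7 fragments with shNME7 and 10 and 12 fragments with shCtrl. Its log2 difference was -0.78 ± 0.29 (SE; limma-trend unadjusted p = 0.0333, adjusted p = 0.729). The difference was -1.15 without shNME7 2 and -0.40 without shNME7 1. HIST1H4B had too few fragments for the limma-voom fit, which needed a mean of 10. The stem-loops printed above for HIST1H4I, HIST2H4B and HIST1H4B all begin with GGCCC. HIST2H4B, HIST1H4B, HIST1H4A and HIST1H4J passed the filter on low values only through the shCtrl libraries, so a difference in that direction was favoured by the filter. Of the 15 H4 genes, 14 encode one identical protein.

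Over the whole set, 38 of 87 members passed the filter of a mean of 1 FPKM and were tested, and none was called by limma-trend at an adjusted p of 0.05, where 0 of 12866 genes were called (0.0%). Limma-voom on recovered fragments called no histone gene among the 40 it tested, against 16 of 15112 genes in all (0.106%). At an unadjusted p under 0.05 limma-trend gave 3 members, HIST2H4B, HIST1H3B and HIST1H4B, against 859 of all tested genes (6.68%). Limma-voom gave 2 of the 40 it tested, and its share over all genes at this threshold is not given here. Adjusted p-values of the members ran from 0.567 to 0.996. Among the 38, 9 did not overlap and were higher with shNME7, against 17.8% of all tested genes, and 8 did not overlap and were lower, against 18.4%. These 8 include HIST2H4B, HIST1H4B and HIST1H4A, which passed the filter only through the shCtrl libraries. The filter thus favoured that direction, also for HIST2H4B and HIST1H4B in the count at an unadjusted p under 0.05. For 26 of the 38 (68.4%) the larger of the differences between replicates exceeded the difference between group means, as it did for 75.0% of all tested genes.

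The tested variant genes and the tested cluster genes lay on different sides of 0 in their medians. The median difference between replicates over the 38 tested members was 0.25 on the log2 scale for shNME7 and 0.20 for shCtrl. Of the 9 tested variant genes 8 had a higher mean with shNME7, all but H1F0, and 4 had groups that did not overlap, each with shNME7 above, against 17.8% above and 18.4% below over all tested genes: H2AFZ, H2AFV, H3F3B and H2AFY. Their median log2 difference was 0.12, against 0.01 over all tested genes. Of the 29 tested cluster genes 9 were higher and 20 lower, 5 without overlap above and 8 without overlap below (17.2% and 27.6%, beside the same 17.8% and 18.4%), with a median of -0.12. With the trend on GC and length removed the medians were 0.15 for variant genes, -0.18 for cluster genes and 0.02 for all tested genes. Within the clusters, 9 of the 10 tested H2B genes and 6 of the 8 tested H4 genes were lower with shNME7, while both tested H3 genes were higher. These counts leave out the 49 members under the filter, and the 4 H4 genes named above passed it only through shCtrl. The share of all tested genes that were higher or lower is not given here.

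**Figure D3:**
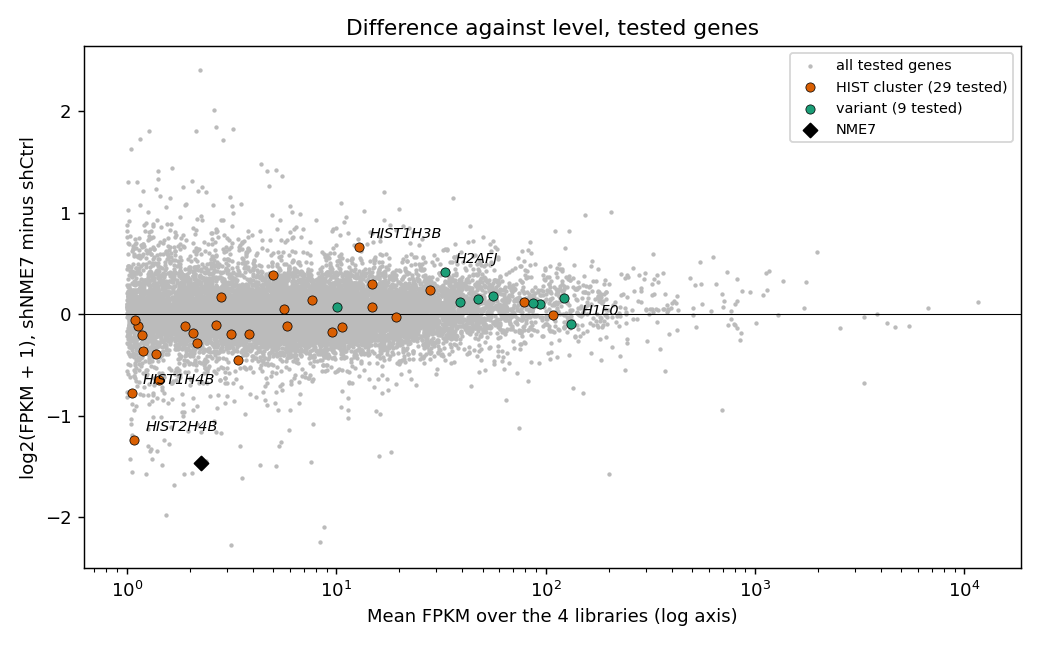
Difference in log2(FPKM + 1), shNME7 minus shCtrl, against mean FPKM (log axis) for the 12866 tested genes in grey, the 29 tested HIST cluster genes in orange, the 9 tested variant genes in green and NME7 as a black diamond. HIST1H3B at 0.66 is the highest and HIST2H4B at -1.24 the lowest of the histone genes, and most others lie within the grey band.

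As sums, the classes did not separate the groups. The cluster sum averaged 369 ± 0.216 FPKM with shNME7 and 359 ± 31.2 FPKM with shCtrl (SD, n = 2 each), a difference of 0.04 in mean log2. The variant sum averaged 641 ± 44.3 FPKM with shNME7 and 601 ± 80.8 FPKM with shCtrl (SD, n = 2 each), a difference of 0.10 in mean log2. The log2 ratio of cluster to variant sum differed by -0.06 between the groups. Each of these is smaller than the SD between replicates, and with 2 libraries against 2 an exact two-sided permutation test cannot go below p = 0.333. With the mean over members of log2(FPKM + 1) in place of the sum, which gives low genes equal weight, the cluster difference was -0.08 and the difference in ratio -0.15.

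Within each histone family that has both kinds of gene, variant genes held most of the summed level. They held 71.8% and 71.5% of linker histone FPKM with shNME7 and 75.7% and 70.4% with shCtrl. For H2A the shares were 79.0% and 80.3% with shNME7 and 78.1% and 79.0% with shCtrl. Both shares overlapped between groups. For H3 the share of H3F3A, H3F3B and H3F3C was 84.5% and 87.0% with shNME7 and 88.4% and 88.2% with shCtrl, so it was lower in both shNME7 libraries. The summed level of the cluster H3 genes was 27.3 and 24.8 FPKM with shNME7 and 19.98 and 18.2 FPKM with shCtrl. Of this sum HIST1H3B alone gave 17.5 and 14.6 FPKM with shNME7 and 9.79 and 9.65 FPKM with shCtrl. By family, the cluster H2B genes summed to 162 and 159 FPKM with shNME7 and 177 and 151 FPKM with shCtrl, the H2A genes to 66.8 and 70.2 FPKM with shNME7 and 70.3 and 58.7 FPKM with shCtrl, and the H4 genes to 30.3 and 26.7 FPKM with shNME7 and 32.4 and 29.9 FPKM with shCtrl.

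**Figure D4:**
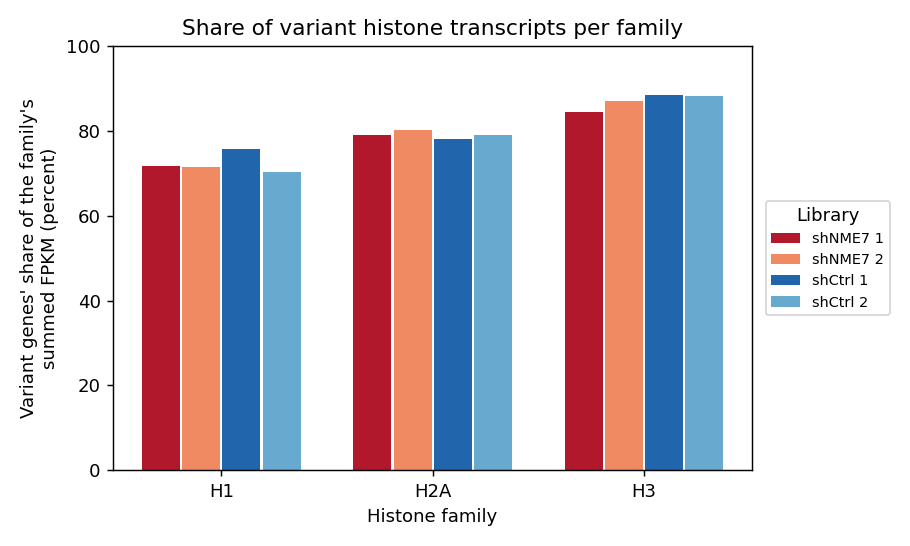
Variant genes' share (percent, bars from 0) of the summed FPKM of the H1, H2A and H3 families in each shNME7 and shCtrl library. The H3 share is 84.5% and 87.0% with shNME7, below 88.4% and 88.2% with shCtrl, while the H1 and H2A shares overlap.

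Levels of cluster genes were set against their annotated transcript ends as a description. The 22 genes whose longest model with the stem-loop runs more than 100 bases past it had a median of 1.11 FPKM, and 13 of them reached 1 FPKM. Among them were HIST3H2A, HIST1H2AC, HIST1H4I, HIST2H2BE and HIST1H3H, whose models run on for 390, 1128, 212, 1729 and 769 bases after the stem-loops printed above. In 9 genes the models that hold the stem-loop all end within 100 bases of it. These 9 had a median of 1.06 FPKM, with 5 at 1 FPKM or more, and only HIST1H2BD among them reached 5 FPKM. Another annotated HIST1H2BD transcript, in which no stem-loop was found, runs 384 bases past the stop codon. HIST1H2BD also has poly(A) signal letters at an annotated end. The 35 genes with under 30 annotated bases past the stop codon had a median of 0.184 FPKM, yet included both cluster genes with the highest levels, HIST1H2BK and HIST1H1C. Of the 12 cluster genes at a mean of 5 FPKM or more, 7 had poly(A) signal letters at an annotated end, 6 had a stem-loop and 4 had exons of coding sequence alone. Length of the annotated exon enters FPKM itself, so these levels are not independent of the models.

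**Figure D5:**
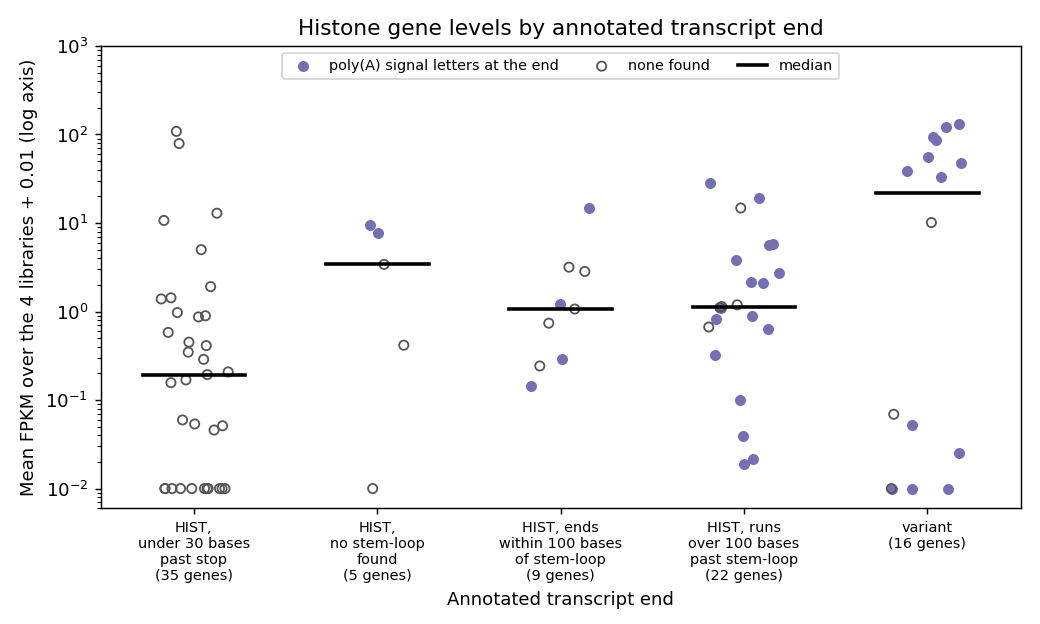
Mean FPKM over the 4 libraries (plus 0.01, log axis) of each histone gene by its annotated transcript end, with filled points for genes that have poly(A) signal letters there, open points for genes with none found and a black bar at each median. Cluster genes with a stem-loop are placed by the models that hold it. The variant median of 21.6 FPKM lies above those of the 4 groups of cluster genes, while HIST1H2BK and HIST1H1C stand at the top of the group with under 30 bases past the stop codon.

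Other RNAs known to lack a poly(A) tail were measured for comparison. Of the 16 gene IDs of this list, 12 were listed at 0 in every library, among them RN7SK, RMRP, RPPH1, TERC and RN7SL1, which cells use generally, so these zeros may not be levels. RN7SL2, a gene of the signal recognition particle RNA, was the only one that was tested, with 106 and 305 FPKM with shNME7 and 157 and 52.5 FPKM with shCtrl. Its log2 difference was 0.98 ± 0.63 (SE; limma-trend adjusted p = 0.819). It was 1.74 without shNME7 1 and 1.76 without shCtrl 1, but 0.22 without shNME7 2 and 0.20 without shCtrl 2. The order of the libraries in RN7SL2, with shNME7 2 highest, then shCtrl 1, shNME7 1 and shCtrl 2, was also that of H3F3A, H2AFX, H2AFJ, HIST3H2A and HIST1H2AI among the 38 tested histone genes, and of the summed variant FPKM. The share of all tested genes with this order is not given here, and whether the order bears on the histone values was not tested.

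The genes that make and handle histone mRNA were present and showed no call. Limma-trend called 0 of 12866 genes and limma-voom 16 of 15112, so the lack of a call does not set these genes apart. All 31 genes of the list for histone pre-mRNA processing and the histone locus body were tested, with 17 higher and 14 lower with shNME7. Their median log2 difference was 0.03, against 0.01 over all tested genes. By limma-trend 2 had an unadjusted p under 0.05, against 6.68% of all tested genes. Without overlap, 5 lay above and 4 below (16.1% and 12.9%), against 17.8% and 18.4% of all tested genes. The 4 with the smallest unadjusted p follow. SNRPG, a Sm ring protein shared by the spliceosome and the U7 particle, had 51.6 and 61.0 FPKM with shNME7 and 31.1 and 36.1 FPKM with shCtrl (log2 difference 0.73 ± 0.16, SE; limma-trend adjusted p = 0.565). SNRPE, of the same ring, had 71.4 and 65.5 FPKM with shNME7 and 49.8 and 56.0 FPKM with shCtrl (limma-trend adjusted p = 0.730). In SNRPG and SNRPE the groups did not overlap, and neither passed the test over all genes. Over the libraries left out, the log2 difference of SNRPG ran from 0.61 (without shNME7 2) to 0.84 (without shNME7 1). SNRPF, the third Sm protein, had 20.2 and 20.7 FPKM with shNME7 and 16.6 and 16.9 FPKM with shCtrl. LSM1, which acts in the decay of mRNAs, histone mRNAs included, had 11.7 and 15.2 FPKM with shNME7 and 11.0 and 10.3 FPKM with shCtrl. SNRPF and LSM1 were thus also higher in both shNME7 libraries, by 0.27 and 0.30 on the log2 scale (limma-trend adjusted p = 0.793 and 0.795).

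Of the 28 histone chaperones and deposition factors 25 were tested, with 5 higher and 20 lower with shNME7. Their median log2 difference was -0.07, against 0.01 over all tested genes, whose share higher or lower is not given here. None was called, where limma-trend called 0 of 12866 genes. At an unadjusted p under 0.05 limma-trend gave 0 of the 25, against 6.68% of all tested genes. Limma-voom gave 1, ATRX (unadjusted p = 0.0396, adjusted p = 0.608), and its share over all genes is not given here. The 4 with the smallest p in limma-trend were ATRX, which with DAXX places H3.3, SUPT6H, a chaperone that travels with RNA polymerase II, UBN2, a partner of HIRA, and EP400, which places H2A.Z. ATRX had 8.76 and 7.81 FPKM with shNME7 and 9.61 and 12.0 FPKM with shCtrl. SUPT6H had 16.1 and 17.7 FPKM with shNME7 and 20.3 and 20.4 FPKM with shCtrl. UBN2 had 2.05 and 1.89 FPKM with shNME7 and 2.28 and 2.69 FPKM with shCtrl. These 3 did not overlap between groups. Among the 25 tested, 2 lay above and 6 below without overlap, against 17.8% above and 18.4% below over all tested genes. EP400 had 5.06 and 6.43 FPKM with shNME7 and 6.35 and 7.10 FPKM with shCtrl, with overlap. Their limma-trend adjusted p-values were 0.787 for ATRX, 0.795 for SUPT6H, 0.833 for UBN2 and 0.836 for EP400.

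S phase and proliferation markers were given because replication-dependent histone mRNA follows S phase. All 24 were tested, with 3 higher and 21 lower with shNME7, 1 without overlap above and 7 without overlap below, against 17.8% above and 18.4% below over all tested genes. Their median log2 difference was -0.10, against 0.01 over all tested genes, whose share higher or lower is not given here. Neither limma-trend nor limma-voom gave any of the markers an unadjusted p under 0.05 (0 of 24 in each). RRM2, a subunit of ribonucleotide reductase, had 19.5 and 15.1 FPKM with shNME7 and 20.1 and 23.1 FPKM with shCtrl. E2F2 had 7.39 and 7.85 FPKM with shNME7 and 10.1 and 8.71 FPKM with shCtrl, and E2F1 had 19.4 and 22.8 FPKM with shNME7 and 27.6 and 23.1 FPKM with shCtrl. E2F1 and E2F2 are transcription factors of the entry into S phase. CDC6, which loads the replicative helicase, had 29.97 and 28.4 FPKM with shNME7 and 31.4 and 35.5 FPKM with shCtrl. Each of these 4 was lower in both shNME7 libraries without overlap, and none passed the test (limma-trend adjusted p = 0.795 for RRM2 and E2F2, 0.816 for E2F1 and 0.836 for CDC6).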

How the data were processed

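Members, lists and tests were chosen with earlier results of these data known. The authors deposited 1 table per library with FPKM for 58735 genes, per the file headers. The submitters' processing notes list HISAT2 2.0.5 and the build hg18, while all gene IDs occur in GENCODE release 29 (GRCh38), which gave names, exon lengths, transcripts and coordinates. The counting tool, its use of strand and its treatment of reads with several matches are not stated, so values of near-identical histone copies are uncertain.

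FPKM times exon length gave whole multiples of 1 step for 100% of values above 0 (within 0.01), from which fragments were recovered. A count of 0 allows 3 fragments, or 0.177 to 0.202 CPM, and this floor covers counting error only. The main test was limma-trend (limma 3.58.1, R 4.3.3) on log2(FPKM + 1) for the 12866 genes with a mean of at least 1 FPKM, two-sided, with Benjamini-Hochberg adjustment over all of them at 0.05. Alternatives were limma-voom on recovered fragments, a pseudocount of 0.1, no filter, a replicate block, each library left out, and a loess trend on GC and length (span 0.3) removed. The fits were tested on simulated data in which only genes with many fragments were changed. That test did not cover changes in genes with few fragments, such as HIST2H4B and HIST1H4B. Sums and ratios have no test.

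Named members have a mean of at least 5 FPKM, or an unadjusted p under 0.05 with at least 10 fragments. For each other list the 4 tested genes with the smallest unadjusted p are named. HIST1H1E, HIST1H4A, HIST1H4J, HIST1H2AI, H3F3C, HIST2H4A and the marker genes were named after their values were seen.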

Additional observations from a re-analysis of the deposited data

How the results depend on the processing

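The count of called histone genes was 0, and stayed 0 with a pseudocount of 0.1, no filter, limma-voom, the GC and length trend removed with or without a replicate block, and without shCtrl 1. It ranged from 0 to 4 over the libraries left out, where the lone library of a group is assumed to vary like the others: 4 without shNME7 1 (HIST2H4B, HIST1H4A, HIST1H1E and H2AFJ, limma-trend adjusted p = 0.000688, 0.00529, 0.0186 and 0.0315), 3 without shNME7 2 (HIST2H4B, HIST1H3B and HIST1H4B) and 1 without shCtrl 2 (HIST2H4B). The replicate numbers are not said to pair the libraries, and same-numbered deviations correlated at -0.347 over 12866 genes; with the replicate number as a block 1 member was called (HIST2H4B, limma-trend adjusted p = 0.00189) and 122 genes in all. A crossed pairing, added after seeing the data, called 0 members and 0 genes.

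As the mean over members of log2(FPKM + 1), the cluster difference was -0.080 and the cluster to variant difference -0.15; over tested members with the GC and length trend removed they were -0.22 and -0.33. Over the libraries left out, the cluster sum differed by -0.05 to 0.13, the variant sum by -0.04 to 0.24 and the ratio by -0.13 to 0.02. Of 23 named histone genes 12 kept their direction under every alternative that gave a value for them, which was 11 alternatives, or 10 for HIST1H4B, which had too few fragments for limma-voom. With the trend removed, with or without the block, the sign turned for H1FX (-0.10), HIST1H1C (-0.030), H2AFX (-0.076) and HIST1H3H (-0.014). Over the libraries left out, the log2 difference crossed 0 for H1F0 (-0.21 to 0.013), HIST1H2BK (-0.17 to 0.16), H3F3A (-0.021 to 0.22), H1FX (-0.29 to 0.51), H2AFX (-0.085 to 0.33), HIST1H2AC (-0.16 to 0.11), HIST1H4I (-0.14 to 0.27), HIST1H2BO (-0.39 to 0.13), HIST2H2BE (-0.32 to 0.091) and HIST1H3H (-0.060 to 0.16). The cause of these changes was not tested. Members at a few fragments, such as HIST1H4B, are limited by depth.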
